A study of Mus musculus with 18 samples.

Results

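Pax6, Rax, Lhx2, Six3, Six6, Sox2, Fgf15 and Sfrp2 are genes by which retinal progenitor cells are commonly recognised, and their levels were followed in mouse retinal cells after knockdown or overexpression of Nmnat1 or Nmnat2. The 8 members were taken by gene symbol from 34385 rows of a knockdown table and 34396 rows of an overexpression table, and all 8 were found in both. Of the 8, 6 encode transcription factors; Fgf15 and Sfrp2 encode secreted proteins, so that the name progenitor transcription factors does not cover them. A ninth row also carries the symbol Rax, but its identifier, ENSMUSG00000024517.16, belongs to Grp in GENCODE M21; it read between 0 and 0.669 ppm, failed the filter on low values in both tables and was left out.

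Nmnat1 and Nmnat2 encode enzymes that make NAD, the first nuclear and the second mainly cytoplasmic. Retinas of outbred ICR mice at postnatal day 0.5 received plasmids by electroporation, always with a second plasmid for EGFP, and were cultured as explants for 3 days; EGFP-positive cells were then sorted and 1 ng of total RNA per sample was sequenced. The 6 groups of 3 samples were a scramble shRNA plasmid, a plasmid against Nmnat1 and a plasmid against Nmnat2 in the knockdown table, and an empty vector, Nmnat1 and Nmnat2 in the overexpression table. All 6 groups thus carry a plasmid load and EGFP, and hold whichever cell types the electroporated progenitors had given rise to; the labels name neither the promoters of the plasmids nor the litters behind the 3 samples of a group. The title of 1 sample in each of the Nmnat2 groups names Nmnat3, whereas description and characteristics name Nmnat2, which was followed.

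In the eye field, Rax, Pax6, Six3, Six6 and Lhx2 act as a network of homeodomain factors that sets aside the cells of the future retina, and Sox2 keeps them in the progenitor state. Most of these genes are also kept in particular mature cells: Pax6 and Six3 in amacrine and ganglion cells, Six6 in amacrine and ganglion cells, Sox2 in Müller glia and some amacrine cells, Lhx2 and Rax in Müller glia, and Rax in photoreceptors. Newly born cells of the early postnatal mouse retina are mostly rods, with bipolar cells, late amacrine cells and Müller glia beside them, so in a sorted pool the level of a member reads both the remaining progenitors and these cell types.

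Levels are given in ppm, parts per 1000000 of the summed deposited signal of a library, a scale already divided by gene length. Per kilobase of effective gene length, 1 ppm was worth about 12.8 to 20.8 reads in knockdown libraries and about 11.3 to 16.8 reads in overexpression libraries. That gives about 1969 to 5699 reads for Six6 and 146 to 679 for Sox2, the 2 members with 1 annotated transcript, while Fgf15 and Sfrp2 rest on few reads. The plasmids left their mark: Nmnat1 read 7.80 ± 0.642 ppm after its knockdown against 19.0 ± 1.99 in scramble (SD, n = 3 each) and 19300 ± 7370 ppm after its overexpression against 20.8 ± 1.97 in the empty vector. Nmnat2 read 21600 ± 1070 ppm after its overexpression against 1.89 ± 0.788, but only 0.927 ± 0.390 ppm after its knockdown against 2.96 ± 2.91 in scramble, where single libraries spanned 0.624 to 6.22, so its knockdown could not be shown at this depth. Each overexpression group also read more of the other enzyme than the vector, without overlap. Nmnat2 was 5.23 ± 1.84 ppm after Nmnat1 overexpression, and Nmnat1 was 42.4 ± 3.08 ppm after Nmnat2 overexpression (limma adjusted p = 0.122 and 0.0733). The cause was not tested. The knockdown library N2_2, of the Nmnat2 group, stood apart, with 6.51% of its signal from mitochondrial genes against at most 4.67% in the other 17, and the Nmnat1 and Nmnat2 overexpression libraries numbered 1 lay apart from numbers 2 and 3 in several members. Results are therefore given with and without these libraries, the vector library numbered 1 being left out as well. Because the libraries numbered 1 were set apart by the members' own values, member calls without them are descriptions and no separate support.

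Several members moved side by side over the libraries, as shown further on, and the 250 bases before their annotated starts are printed for the 4 that did so most closely. The sequences are from RefSeq on GRCm38.p6, plus strand, 5′ to 3′, and 6 of the 8 members matched an entry. Capitals mark, on either strand, the letters ACAAT (the core of Sox sites), GGGCGG (GC box) and CCAAT (bound by the factor NF-Y). The last of these was added after the sequences had been read.
Pax6, distal start, chr2:105668646-105668895: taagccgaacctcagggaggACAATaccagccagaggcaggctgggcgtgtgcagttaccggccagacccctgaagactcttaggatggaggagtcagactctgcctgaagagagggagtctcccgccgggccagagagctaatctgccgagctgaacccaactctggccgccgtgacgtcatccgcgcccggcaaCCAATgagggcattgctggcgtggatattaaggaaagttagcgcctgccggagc
Pax6, proximal start, chr2:105682213-105682462: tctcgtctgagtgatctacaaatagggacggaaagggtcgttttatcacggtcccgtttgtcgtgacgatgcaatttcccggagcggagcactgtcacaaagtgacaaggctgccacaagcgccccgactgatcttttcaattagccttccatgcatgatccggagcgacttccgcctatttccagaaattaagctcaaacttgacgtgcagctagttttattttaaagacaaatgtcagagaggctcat
Six3, chr17:85620584-85620833: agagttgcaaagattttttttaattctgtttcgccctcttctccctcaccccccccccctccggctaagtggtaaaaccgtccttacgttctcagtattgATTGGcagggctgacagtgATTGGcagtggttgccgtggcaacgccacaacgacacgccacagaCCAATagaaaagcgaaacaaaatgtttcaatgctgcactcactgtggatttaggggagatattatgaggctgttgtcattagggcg
Six6, chr12:72939632-72939881: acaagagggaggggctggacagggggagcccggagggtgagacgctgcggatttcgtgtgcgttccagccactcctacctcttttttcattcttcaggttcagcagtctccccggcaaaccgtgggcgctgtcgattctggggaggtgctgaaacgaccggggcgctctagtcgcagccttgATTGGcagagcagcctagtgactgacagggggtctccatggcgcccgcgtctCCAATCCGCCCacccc
Sox2, chr3:34649745-34649994: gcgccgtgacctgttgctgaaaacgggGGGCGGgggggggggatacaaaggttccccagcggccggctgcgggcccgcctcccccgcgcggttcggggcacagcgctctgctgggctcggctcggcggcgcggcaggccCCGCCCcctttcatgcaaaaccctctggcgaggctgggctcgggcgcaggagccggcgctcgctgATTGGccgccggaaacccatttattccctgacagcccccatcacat
Six3 held 3 CCAAT letters, Six6 held 2, and Sox2 and the distal Pax6 start held 1 each, whereas the proximal Pax6 start and the promoters of Lhx2 (2 starts) and Sfrp2 held 0. CCAAT is present in 33.8% of the 32851 RefSeq promoters cut to the same length, GGGCGG in 32.7% and ACAAT in 27.7%. GGGCGG was found in Sox2 (2 places) and Six6 (1 place, next to a CCAAT) and ACAAT in the distal Pax6 start alone among these 5 sequences. No window of the 5 held TAATTA (a homeodomain core, 4.84% of promoters), CAGCTG (an E-box, 13% of promoters), TGGGAA (RBPJ, 21.6%), TGATAC (bound by Six3 and its relatives, 4.64%) or TATAAA (12.4%). Base composition differed among them, with 72% G or C in Sox2, 62.8% in Six6, 60.8% and 47.6% at the Pax6 starts and 48.8% in Six3, against a median of 52.4% over all promoters.

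In the control libraries the members spanned more than 2 orders of magnitude. In scramble, Rax was the highest at 617 ± 70.7 ppm (SD, n = 3), followed by Pax6 at 129 ± 10.8, Six6 at 62.6 ± 1.27, Six3 at 60.6 ± 5.02, Lhx2 at 26.3 ± 4.70, Sox2 at 9.24 ± 0.493, Sfrp2 at 4.28 ± 0.978 and Fgf15 at 3.95 ± 2.78 ppm. Six6 and Six3 did not differ beyond their spread, nor did Sfrp2 and Fgf15. The empty vector gave the same order, with Rax at 571 ± 36.5, Pax6 at 94.7 ± 10.2, Six6 at 63.1 ± 0.841, Six3 at 54.4 ± 4.38, Lhx2 at 35.6 ± 4.76, Sox2 at 13.4 ± 2.32, Sfrp2 at 6.03 ± 2.16 and Fgf15 at 3.98 ± 1.07 ppm. Here only Sfrp2 and Fgf15 overlapped among neighbours. The secreted factors, which are high in dividing embryonic progenitors, were thus the lowest of the 8 in these cells. In the control libraries the 12 markers of cycling cells summed to only 108 to 189 ppm per library, against 4584 to 5011 for 10 rod markers.

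**Figure D1:**
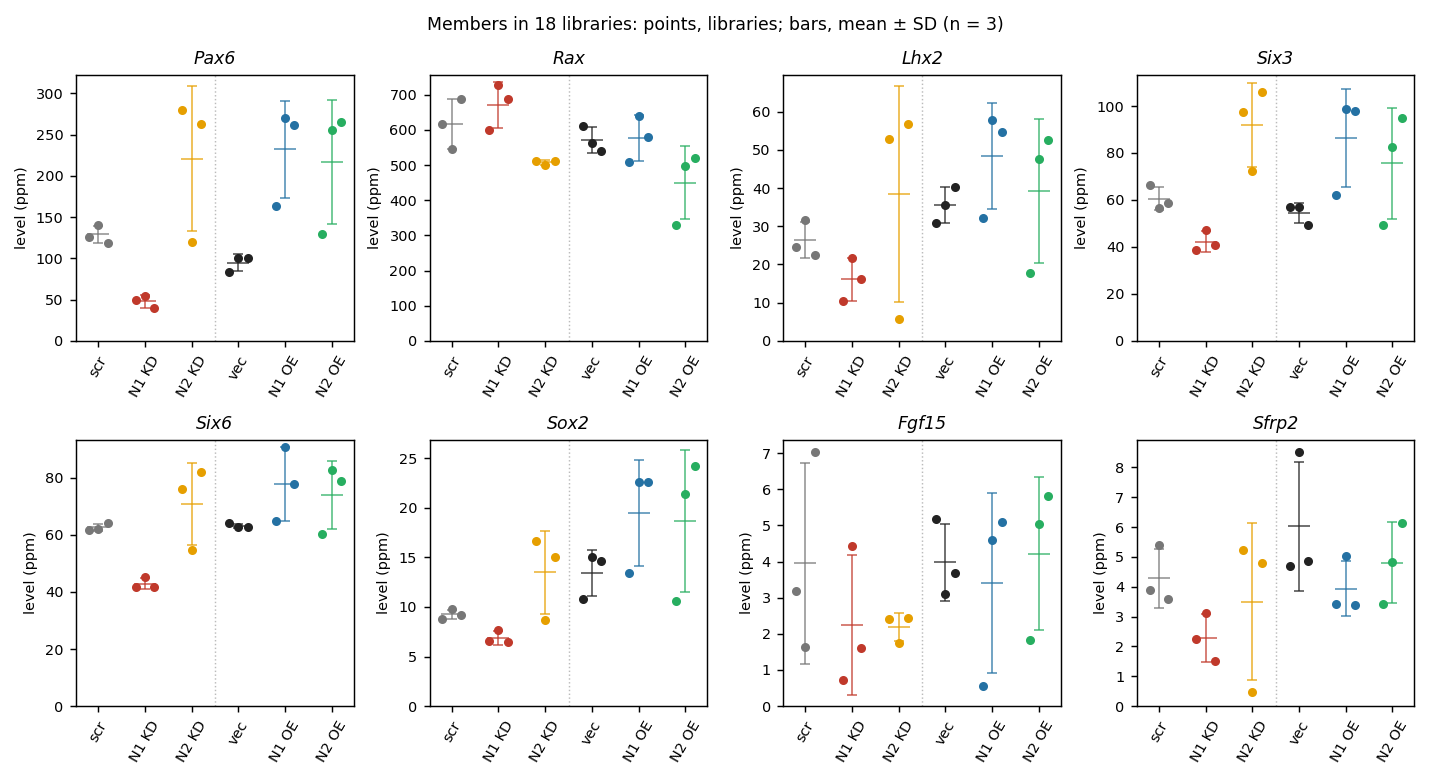
Level of each of the 8 members in ppm (vertical axes, linear, starting at 0) in every library, grouped as scramble (scr), Nmnat1 and Nmnat2 knockdown (N1 KD, N2 KD), empty vector (vec), and Nmnat1 and Nmnat2 overexpression (N1 OE, N2 OE); points are libraries, bars mean ± SD (n = 3), and the dotted line parts the 2 tables. Pax6 lies lowest in the 3 Nmnat1 knockdown libraries (39.6 to 54.4 ppm), and 1 Nmnat2 knockdown library and the overexpression libraries numbered 1 lie apart from the other 2 of their group in Pax6, Lhx2 and Sox2.

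The first comparison set Nmnat1 knockdown against scramble. Pax6, a paired-box factor that progenitors need for their full range of fates, read 49.4, 54.4 and 39.6 ppm in the 3 knockdown libraries and 126, 141 and 119 ppm in the 3 scramble libraries. The groups did not overlap, and the knockdown mean was 2.69-fold lower. On the log2(ppm + 1) scale the difference was -1.42 ± 0.30 (SE), which did not pass the threshold of 0.05 over all genes (limma, Benjamini-Hochberg adjusted p = 0.125). The fit shares 1 spread over the 9 libraries of the table, N2_2 included; without N2_2, a library of the other knockdown, the estimate was -1.42 ± 0.12 with adjusted p = 0.000232. In bulk RNA, fewer cells that express a gene and less of its RNA per cell cannot be told apart, here or below.

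Six6, needed for the growth of the progenitor pool, read 41.6, 45.1 and 41.9 ppm after Nmnat1 knockdown and 61.7, 62.0 and 64.0 ppm in scramble. Six3, its close relative, read 38.6, 47.2 and 40.9 ppm against 66.3, 56.7 and 58.9 ppm. Neither pair of groups overlapped, and the libraries within each group lay close together. The log2 differences were -0.54 ± 0.19 for Six6 (adjusted p = 0.364) and -0.51 ± 0.20 for Six3 (adjusted p = 0.410), and without N2_2 the adjusted p fell to 0.00982 and 0.0258.

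Sox2 (6.46 to 7.72 ppm against 8.79 to 9.76), the LIM-homeodomain gene Lhx2 (10.5 to 21.7 against 22.6 to 31.6) and the WNT inhibitor Sfrp2 (1.51 to 3.12 against 3.58 to 5.40) were also below every scramble library. Their log2 differences, -0.38 ± 0.30, -0.71 ± 0.68 and -0.70 ± 0.54, were less than 1.5 standard errors from 0 and not called with or without N2_2. Fgf15 overlapped between the groups. Rax, the retinal homeobox gene, was the exception in sign: it read 600, 727 and 688 ppm against 617, 547 and 688 ppm in scramble, overlapping, with a log2 difference of 0.12 ± 0.14.

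In all, 0 of 8 members were called after Nmnat1 knockdown in a table where 0.144% of 22233 genes were, with 3 of 8 (Pax6, Six6 and Six3) and 10.5% of all genes at an unadjusted p under 0.05. Without N2_2, 3 of 8 were called, all lower, where 8.43% of all genes were called. In 6 of 8 the groups did not overlap, with knockdown lower, as was so for 12% of all genes; with 3 libraries against 3 the exact two-sided permutation test cannot give a p under 0.1. The median log2 difference was -0.58 over the 8 members and 0 over all genes tested.

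The second comparison set Nmnat2 knockdown against scramble, and the members split by library. Pax6 read 280, 120 and 263 ppm, Six3 read 97.5, 72.2 and 106 ppm, and Lhx2 read 52.8, 5.83 and 56.7 ppm, the middle value being N2_2 each time. In the other 2 libraries all 3 genes lay above every scramble library. In N2_2, Lhx2 was below all of scramble, Pax6 within its range, and Six3 above it. Sox2 (16.6, 8.71 and 15.0 ppm) and Six6 (75.9, 54.8 and 82.0 ppm) had the same pattern, N2_2 being lower than every scramble library and the other 2 higher.

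With all 3 libraries 0 of 8 members were called, where 0.436% of all genes were; 2 of 8, and 16.8% of all genes, had an unadjusted p under 0.05. Six3 differed by 0.58 ± 0.20 (adjusted p = 0.191) and Pax6 by 0.69 ± 0.30 (adjusted p = 0.280) on the log2 scale. Without N2_2, 3 of 8 were called, all higher, where 15.5% of all genes were called: Pax6 by 1.08 ± 0.14 (adjusted p = 0.000862), Six3 by 0.74 ± 0.13 (adjusted p = 0.00447) and Lhx2 by 1.04 ± 0.27 (adjusted p = 0.0269). Six6 (0.33 ± 0.11) and Sox2 (0.72 ± 0.23) then had adjusted p of 0.0687 and 0.0639. The median over the 8 members was 0.09 with all libraries.

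Rax read 513, 501 and 511 ppm against 547 to 688 in scramble, with N2_2 no different from its companions. The groups did not overlap, and the log2 difference was -0.27 ± 0.14 (adjusted p = 0.370). The median of all genes in this comparison was itself -0.23, and under median-of-ratios scaling, which moved that median to -0.04, Rax stood at -0.03. Six3 alone had 3 knockdown libraries above all scramble libraries, as 4.73% of all genes did, and Rax alone 3 below, as 17.2% did. Sfrp2 (5.22, 0.468 and 4.80 ppm) and Fgf15 (2.42, 1.76 and 2.43 ppm) overlapped with scramble.

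Set directly against each other, the 2 knockdowns differed in 2 members with all libraries in the fit. Pax6 was 4.63-fold lower after Nmnat1 knockdown (47.8 ± 7.55 ppm) than after Nmnat2 knockdown (221 ± 88.3 ppm), a log2 difference of -2.10 ± 0.30 with adjusted p = 0.00726. Six3 was 2.18-fold lower (42.2 ± 4.47 against 92.0 ± 17.8 ppm), at -1.09 ± 0.20 with adjusted p = 0.0239. These made 2 of 8 members, where 2.06% of all genes were called. The libraries of the 2 groups did not overlap for Pax6, Six3, Six6 and Sox2, lower after Nmnat1 knockdown as were 6.37% of all genes, nor for Rax, higher as were 19%.

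Both calls depended on single libraries. Pax6 had adjusted p = 0.0531 without N1_3, and Six3 had values between 0.0505 and 0.125 without any 1 of C3, N1_1, N1_2, N1_3, N2_1 or N2_3. Without N2_2, 6 of 8 members were called where 13.5% of all genes were. Pax6 (-2.50 ± 0.14), Lhx2 (-1.75 ± 0.27), Six3 (-1.26 ± 0.13), Sox2 (-1.09 ± 0.23) and Six6 (-0.87 ± 0.11) were lower and Rax (0.39 ± 0.11, adjusted p = 0.0402) was higher after Nmnat1 knockdown.

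**Figure D2:**
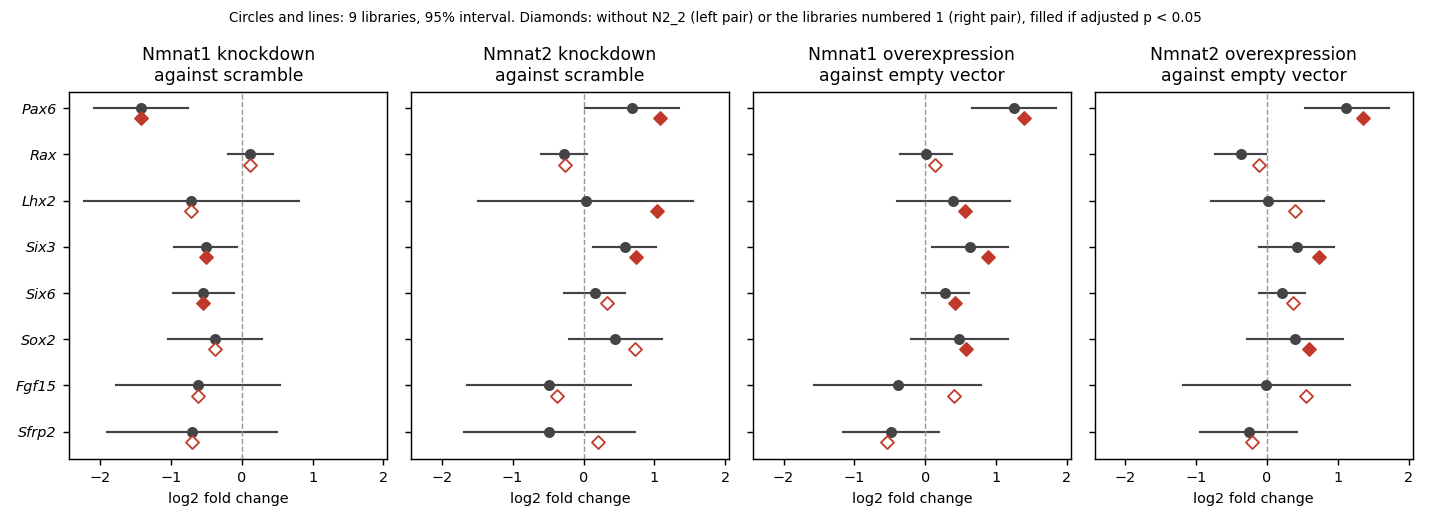
Log2 fold change of each member (horizontal axes) in the 4 comparisons with a control; circles and lines are the estimate and its 95% interval from 9 libraries, and diamonds the estimate without the knockdown library N2_2 (left 2 panels) or without the 3 overexpression libraries numbered 1 (right 2 panels), filled where the adjusted p is under 0.05. Pax6 has the estimate farthest from 0 in every panel (-1.42, 0.69, 1.25 and 1.12 from left to right), and Rax stays within 0.37 of 0.

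The third comparison set Nmnat1 overexpression against the empty vector. Pax6 read 163, 270 and 262 ppm in the libraries numbered 1, 2 and 3, against 82.9, 101 and 100 ppm in the vector. Every overexpression library was above every vector library, and the mean was 2.45-fold higher. The log2 difference was 1.25 ± 0.27, with adjusted p = 0.115; with the replicate number as a term in the fit it was 1.25 ± 0.14 and was called, with adjusted p = 0.0104.

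Six3 read 62.1, 98.8 and 97.8 ppm against 56.9, 57.0 and 49.3 ppm, and Six6 read 64.7, 90.7 and 77.9 ppm against 64.1, 62.8 and 62.6 ppm. Both were higher in each of the 3 overexpression libraries, although number 1 exceeded the highest vector library by little. Sox2 (13.4, 22.6 and 22.6 ppm against 10.8, 15.0 and 14.6) and Lhx2 (32.3, 57.9 and 54.6 ppm against 30.8, 35.7 and 40.3) had number 1 inside the vector's range and numbers 2 and 3 above it. The log2 differences over all libraries were 0.63 ± 0.24, 0.28 ± 0.15, 0.48 ± 0.31 and 0.39 ± 0.36 in that order, none called.

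Thus 0 of 8 members were called, where 0.121% of 20725 genes were (2 of 8, and 9.57% of all genes, at an unadjusted p under 0.05), and 1 of 8, Pax6, with the replicate number in the fit, where 0.902% were. For Pax6, Six3 and Six6 the groups did not overlap, which was so with overexpression higher for 7.74% of all genes. Without the 3 libraries numbered 1, 5 of 8 members were called, all higher, where 11.1% of all genes were called. These were Pax6 at 1.39 ± 0.06 (adjusted p = 3.25e-05), Six3 at 0.88 ± 0.10, Sox2 at 0.58 ± 0.13, Lhx2 at 0.56 ± 0.10 and Six6 at 0.42 ± 0.09. Pax6 was also called when only Nmnat1 overexpression number 1 (adjusted p = 0.0325) or only Nmnat2 overexpression number 1 (adjusted p = 0.0203) was left out. Rax (509, 639 and 580 ppm against 540 to 611) differed by 0.01 ± 0.16. The median over the 8 members was 0.34, against -0.04 over all genes.

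The fourth comparison set Nmnat2 overexpression against the same vector libraries. Pax6 read 130, 256 and 265 ppm, again with number 1 lowest but above the vector, and the mean was 2.29-fold higher. The log2 difference was 1.12 ± 0.27 with adjusted p = 0.114; with the replicate number in the fit the adjusted p was 0.0143, and without Nmnat2 overexpression number 1 it was 0.0110. Six3 (49.2, 82.7 and 94.9 ppm), Six6 (60.3, 82.7 and 78.7 ppm), Sox2 (10.6, 21.4 and 24.2 ppm) and Lhx2 (17.8, 47.6 and 52.5 ppm) each had number 1 below the lowest vector library and the other 2 above the highest.

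After Nmnat2 overexpression 0 of 8 members were called where 0.55% of all genes were (2 of 8, and 10.3% of all genes, at an unadjusted p under 0.05), and 1 of 8, Pax6, with the replicate number in the fit, where 1.3% were. The median log2 difference was 0.11 over the members and 0.06 over all genes. Without the libraries numbered 1, 3 of 8 were called, all higher, where 8.18% of all genes were: Pax6 at 1.36 ± 0.06 (adjusted p = 4.12e-05), Six3 at 0.73 ± 0.10 and Sox2 at 0.59 ± 0.13. Pax6 was the only member whose 3 libraries all exceeded the vector's, as did 8.6% of all genes. Rax (330, 498 and 521 ppm) was the only member whose 3 libraries all lay below the vector's 540 to 611 ppm, as did 7.73% of all genes, with a log2 difference of -0.37 ± 0.16 (adjusted p = 0.474) that was -0.11 ± 0.06 without the libraries numbered 1.

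Set against each other, the 2 overexpressions gave no call among the 8 members, where 0.0193% of all genes were called (limma; 1 of 8, Rax, and 4.46% of all genes at an unadjusted p under 0.05). The 95% interval of the log2 difference in Pax6, Nmnat1 less Nmnat2, ran from -0.47 to 0.72, so a difference of that size either way could not be seen. The 2 overexpression comparisons share the vector libraries, and their values are not independent of each other. The secreted factors overlapped with the vector in both: Fgf15 read 0.564 to 5.08 and 1.82 to 5.80 ppm against 3.11 to 5.17, and Sfrp2 read 3.39 to 5.02 and 3.43 to 6.15 ppm against 4.70 to 8.52.

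Over the 18 libraries, with each table centred on its own mean, Pax6 ran with Six6 (Pearson r = 0.95), Six3 (0.93) and Sox2 (0.90), and Six3 with Six6 and with Sox2 (0.92 each). Lhx2 was nearest to Sox2 (0.78) and Sfrp2 (0.77), and Rax to Fgf15 (0.46), with -0.31 between Rax and Pax6. These are descriptions: the points share libraries, depth, groups and the libraries that stand apart. Among 10043 genes compared in the same way, the 3 most like Pax6 were Ptf1a, Ina and Hs3st1 (0.97 each), and the 3 most like Six6 were Cdh22 (0.97), Slc1a6 and Ptf1a (0.96 each). Ptf1a, the factor that commits cells to amacrine and horizontal fates, read 1.19 ppm on average after Nmnat1 knockdown against 13.1 in scramble and 45.9 after Nmnat2 knockdown. Those most like Six3 were Cfl1, Ptma and Nnat (0.96 to 0.97), those most like Sox2 were Nnat, Cdk4 and Cacng4 (0.95 each), those most like Lhx2 were Efhd2, Mycl and Dkk3 (0.95 to 0.97), and those most like Rax were Ptov1 (0.90), Vax2 and Nt5c (0.85 each). Fgf15 was nearest to Ass1 (0.78) and Sfrp2 to Mcfd2 (0.92), each over 10044 genes.

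Marker sums of other cell types also differed between the groups. The 12 amacrine markers, which do not include a member, summed to 364 to 388 ppm after Nmnat1 knockdown against 487 to 503 in scramble, and to 531 (N2_2) to 1073 ppm after Nmnat2 knockdown. They summed to 518 to 729 and 443 to 686 ppm after Nmnat1 and Nmnat2 overexpression against 369 to 423 in the vector, and no amacrine marker was at 0 in all libraries of a group. The ratio of Pax6 to that sum was 10.2% to 14.9% after Nmnat1 knockdown against 23.8% to 28.8% in scramble, without overlap, and 22.6% to 26.3% after Nmnat2 knockdown, which overlapped with scramble. The ratio was 31.5% to 37.2% and 29.4% to 42.7% after the overexpressions against 19.6% to 27.2% in the vector. A sum leans on its highest genes, so the genes were also read singly. Of 12 tested after Nmnat1 knockdown, 10 were below 0 and 2 above (median -0.96). Without N2_2, 6 were called lower and 1 (Meis2) higher, where 8.43% of all genes were called. After Nmnat2 knockdown 9 were above 0 and 3 below (median 0.6). After the overexpressions 10 and 9 were above, and 2 and 3 below. Whether Pax6 fell beyond the amacrine markers was not tested. Müller glia markers, 11 genes, summed to 2648 to 2717 ppm after Nmnat1 and 2209 to 3486 after Nmnat2 knockdown, both below the 4953 to 5595 of scramble. All 10 genes tested were below 0 after Nmnat1 knockdown (median -0.91). After Nmnat2 knockdown 8 were below 0 and 2 above, but without N2_2 5 were above and 5 below (median -0.08), with Prdx6 called higher and Apoe, Crym and Rlbp1 lower. After overexpression the Müller glia sums overlapped with the vector's 5064 to 5895 ppm. With Nmnat1 they were 4978 to 5798 ppm. With Nmnat2, number 1 read 3646 ppm, while numbers 2 and 3 read 6440 and 6499 ppm, above every vector library. Of 9 Müller glia genes tested, 0 were called with all libraries in either. Without the libraries numbered 1, 4 of 9 were called higher with Nmnat1 and 6 of 9 with Nmnat2, and 0 lower, where 11.1% and 8.18% of all genes were called. The sum of the rod markers was lower after Nmnat2 knockdown (1579 to 3416 against 4721 to 4987 ppm) and after both overexpressions (2275 to 4068 and 2186 to 3157 against 4584 to 5011). It was higher after Nmnat1 knockdown (5294 to 5460), although of 9 rod genes tested there 3 were above 0 and 6 below. The 6 horizontal cell markers summed to 33.1 to 36 ppm after Nmnat1 and 42.2 to 123 ppm after Nmnat2 knockdown against 47.6 to 74.2 in scramble, and to 70.3 to 118 and 63.2 to 103 ppm after the overexpressions against 44.7 to 48.1 in the vector. Of 5 horizontal genes tested, 2 were above 0 and 3 below after either knockdown. Only Prox1 and Tfap2b, the latter also an amacrine marker, were called against a control, with or without the libraries set apart. The 6 astrocyte markers summed to 10.3 to 11.5 and 32.5 to 57.9 ppm after the knockdowns against 25.9 to 27.7, and to 36.4 to 39.3 and 26.2 to 49.5 ppm after the overexpressions against 21 to 25.6. Of 5 astrocyte genes tested after Nmnat2 knockdown, however, 2 were above 0 and 3 below (median -0.6). Cxcl14 was the only gene of this list called in any comparison, with or without the libraries set apart. The 9 bipolar markers summed to 449 to 525 and 412 to 442 ppm after the overexpressions, below the 628 to 699 of the vector. After both knockdowns their sum overlapped with scramble (458 to 498 and 212 to 702 against 481 to 547 ppm). For Nmnat2 knockdown the overlap came from N2_2 (702 ppm), while N2_1 and N2_3 read 212 and 226 ppm. All 7 bipolar genes tested were below 0 there (median -0.68). Without N2_2 the median was -1.09, and Cabp5, Pcp2 and Trpm1 were called lower, where 15.5% of all genes were called. After Nmnat1 knockdown 1 was above 0 and 6 below, with 0 called. Of 7 bipolar genes tested, 3 were above 0 and 4 below after Nmnat1 overexpression, and 5 above and 2 below after Nmnat2 overexpression. Pcp2 alone was called lower there (with all libraries, after Nmnat2 only), and without the libraries numbered 1 Isl1 was called higher in both. The part of these cell types in the members' values was not tested. Sums for lens markers were at most 6.25 ppm in any library, with Lim2 at 0 in all 3 Nmnat1 knockdown libraries.

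**Figure D3:**
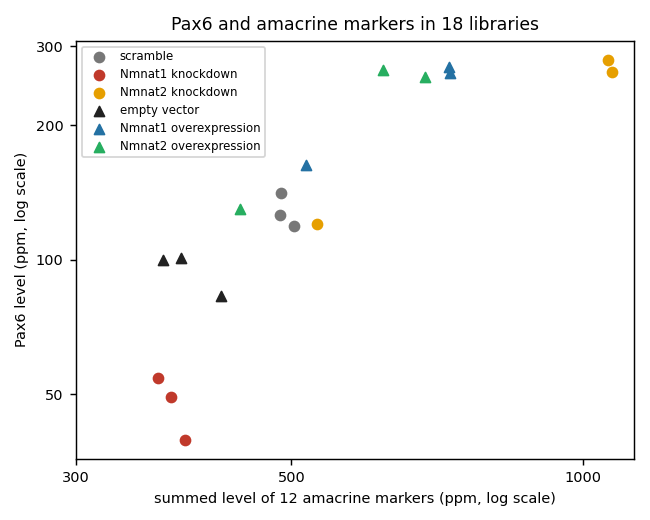
Pax6 level (vertical axis, ppm, log scale) against the summed level of 12 amacrine markers (horizontal axis, ppm, log scale); each point is a library, circles the knockdown table and triangles the overexpression table, coloured by group. The 3 Nmnat1 knockdown libraries lie at 364 to 388 ppm of amacrine markers and 39.6 to 54.4 ppm of Pax6, the scramble libraries at 487 to 503 and 119 to 141 ppm; the tables were normalized apart, so points of different shape are not compared.

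**Figure D4:**
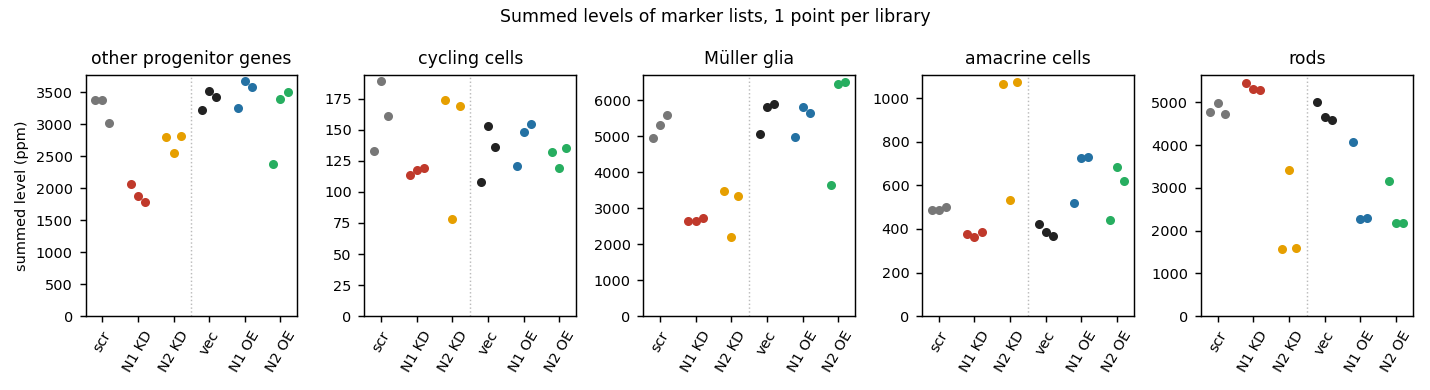
Summed level in ppm (vertical axes, linear, starting at 0) of the other progenitor genes and of markers for cycling cells, Müller glia, amacrine cells and rods, 1 point per library; group names as in the plot of levels by group. Nmnat1 knockdown has lower progenitor, cycling, Müller glia and amacrine sums than scramble and higher rod sums, with no overlap in any of the 5. Fabp7 alone makes up 1230 ppm of the mean progenitor sum of 1910 after Nmnat1 knockdown, and 2250 of 3250 in scramble.

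A list of 25 other progenitor genes, all of which passed the filter on low values, was read for comparison. After Nmnat1 knockdown 0 of 25 were called (10 at an unadjusted p under 0.05), with 19 of 25 below 0 and a median of -0.47 against 0 for all genes; without N2_2, 13 fell and 0 rose, where 8.43% of all genes were called. Hes5, a Notch effector that holds progenitors undifferentiated, read 73.3 ± 4.49 against 172 ± 11.1 ppm (log2 -1.22 ± 0.28, adjusted p = 0.146, or 0.000124 without N2_2), and Fabp7, a fatty acid binding protein of radial and Müller glia, read 1230 ± 127 against 2250 ± 213 ppm (-0.86 ± 0.17, adjusted p = 0.0996, or 0.000505). After Nmnat2 knockdown 0 of 25 were called (5 at an unadjusted p under 0.05; median -0.20 against -0.23), and without N2_2, 5 rose (Cdon, Dkk3, Gas1, Notch1 and Sox9) and 4 fell (Dapl1, Fabp7, Hes5 and Nfix), where 15.5% of all genes were called. After overexpression 0 of 25 were called in either arm (4 and 3 at an unadjusted p under 0.05; medians 0.25 and 0.24 against -0.04 and 0.06). Without the libraries numbered 1, 9 rose and 2 fell with Nmnat1, and 10 rose and 1 fell with Nmnat2, where 11.1% and 8.18% of all genes were called; Nfix, a nuclear factor I gene of late progenitors, was 1 of the risen in both (95.1 ± 7.19 and 103 ± 10.3 against 69.3 ± 3.80 ppm over all libraries).

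Around Fgf15, 16 of 17 FGF pathway genes passed the filter, and 0 were called against any control, with 2, 1, 3 and 4 at an unadjusted p under 0.05 in the 4 comparisons in the order given. Spry2, an FGF feedback inhibitor, read 12.2 ± 2.84 after Nmnat1 knockdown against 26.3 ± 3.63 ppm in scramble (-1.07 ± 0.34, adjusted p = 0.310, or 0.0130 without N2_2). Fgf13, an intracellular relative of the FGFs, read 32.0 ± 7.39 and 29.8 ± 6.42 ppm after the overexpressions against 17.9 ± 3.14, with adjusted p of 0.225 and 0.259, and was called in both with the replicate number in the fit, as the only gene of the list (adjusted p = 0.0392 and 0.0433). Without N2_2, 1 of 16 fell (Spry2) after Nmnat1 knockdown, and 3 rose (Fgf13, Fgf9 and Spred1) and 1 fell (Spry2) after Nmnat2 knockdown, beside 8.43% and 15.5% of all genes. Without the libraries numbered 1, where 14 passed the filter, 5 rose and 1 fell after Nmnat1 overexpression, and 3 rose and 1 fell after Nmnat2 overexpression. Fgf13 and Spry1 rose and Dusp6 fell in both, where 11.1% and 8.18% of all genes were called. Around Sfrp2, 17 of 20 WNT pathway genes passed, and 0 were called against any control (1, 2, 0 and 0 at an unadjusted p under 0.05). Ctnnb1, beta-catenin, read 437 ± 26.8 after Nmnat1 knockdown against 309 ± 20.2 ppm (0.50 ± 0.20, adjusted p = 0.420, or 0.00397 without N2_2). Without N2_2, 2 of 17 rose after Nmnat1 knockdown (Ctnnb1 and Tle1) and 3 after Nmnat2 knockdown (Fzd8, Tle1 and Tle3), and without the libraries numbered 1, 3 rose after Nmnat1 overexpression (Fzd8, Tle1 and Tle3) and 2 after Nmnat2 overexpression (Fzd3 and Tle3). In these 4 comparisons 0 fell, and 8.43%, 15.5%, 11.1% and 8.18% of all genes were called, so these counts lie near the shares of all genes.

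**Figure D5:**
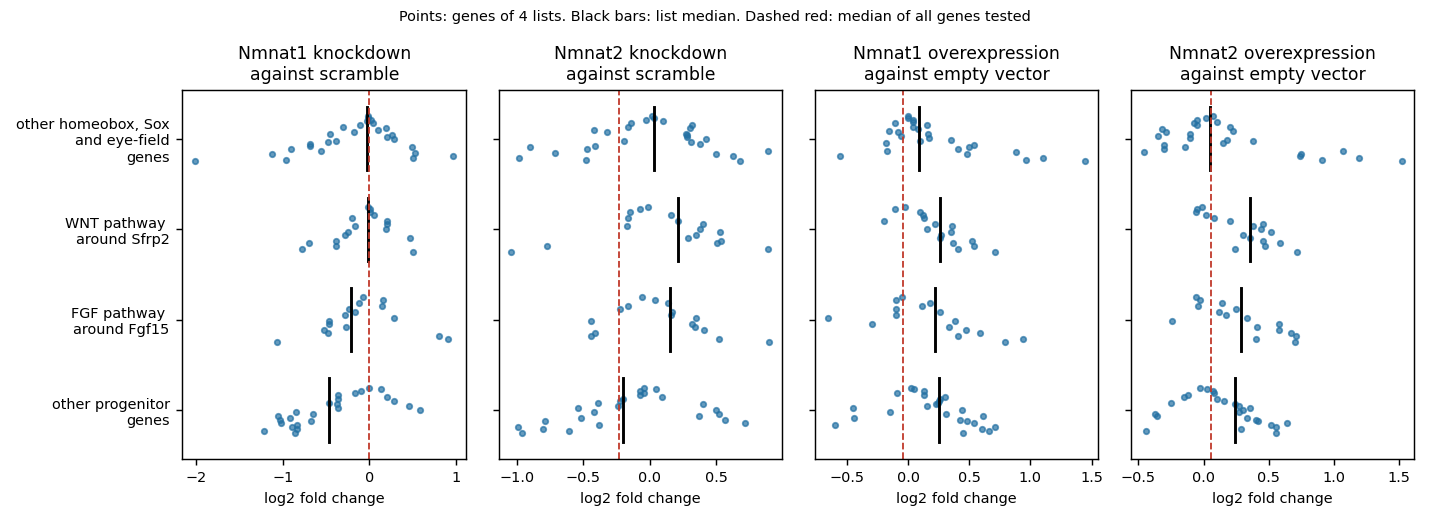
Log2 fold change (horizontal axes, which differ in range) of the genes of 4 lists that passed the filter in the 4 comparisons with a control; points are genes, black bars the list's median, and the dashed red line the median of all genes tested. The other progenitor genes have a median of -0.47 after Nmnat1 knockdown against 0 for all genes, and 0.25 and 0.24 after the overexpressions.

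Among 32 other homeobox, Sox and eye-field genes, 27 passed the filter in the knockdown table and 26 in the overexpression table, and this list held calls with all libraries. Six2, a relative of Six3 best known from kidney progenitors, read 20.9, 23.8 and 20.3 ppm after Nmnat1 overexpression and 18.8, 26.7 and 23.2 ppm after Nmnat2 overexpression, against 9.36, 5.70 and 7.15 ppm in the vector. It rose by 1.45 ± 0.20 (adjusted p = 0.0340) and 1.52 ± 0.20 (adjusted p = 0.0174) on the log2 scale, and here the libraries numbered 1 sat with the others. After Nmnat1 knockdown it read 4.42, 5.64 and 3.44 ppm against 19.9, 18.4 and 24.6 ppm, a difference of -2.01 ± 0.32 with adjusted p = 0.0540 (0.000954 without N2_2), and it was lower than after Nmnat2 knockdown (-1.54 ± 0.32, adjusted p = 0.0405). Sox11, a Sox factor of newborn neurons, rose after Nmnat2 overexpression (13.2 ± 2.34 against 5.20 ± 0.700 ppm, adjusted p = 0.0482) and was lower after Nmnat1 than after Nmnat2 knockdown (3.62 ± 0.178 against 12.9 ± 0.370 ppm, adjusted p = 0.0144). Prox1, which marks horizontal and some amacrine cells, rose after Nmnat2 overexpression (54.1 ± 11.3 against 27.8 ± 0.322 ppm, adjusted p = 0.0397) and read 55.4 ± 5.38 ppm after Nmnat1 overexpression (adjusted p = 0.0581, or 0.0251 and called with the replicate number in the fit). These 6 calls kept their direction under all alternatives run but each was lost without single libraries: without vector number 2 or 3 for the 4 overexpression calls (adjusted p between 0.102 and 0.216), and without N1_1, N1_2, N1_3, N2_1 or N2_3 for the 2 between the knockdowns (0.0635 to 0.174). Further losses came without an overexpression library numbered 2 or 3, for Prox1 and Sox11 without vector number 1, and for Six2 between the knockdowns without C1, C2 or C3. Changes in processing also ended calls. Median-of-ratios scaling ended that of Six2 after Nmnat1 overexpression (adjusted p = 0.0533), and those of Prox1 (0.0897) and Sox11 (0.0724) after Nmnat2 overexpression. No filter (0.0620 and 0.0691) and 2 groups in the fit (0.0800 and 0.0898) ended the same Prox1 and Sox11 calls, and a pseudocount of 5 that of Sox11 (0.0594). Between the knockdowns, Six2 was lost with no filter (0.0586), a pseudocount of 5 (0.0565) and 2 groups in the fit (0.103), and Sox11 with 2 groups in the fit (0.0515). In this list 0 of 27 genes were called in either knockdown against scramble (6 and 5 at an unadjusted p under 0.05), 1 of 26 after Nmnat1 and 3 of 26 after Nmnat2 overexpression (5 and 7 at an unadjusted p under 0.05), beside the 0.121% and 0.55% of all genes called there. With the replicate number in the fit 2 of 26 (Prox1 and Six2) and 3 of 26 (Prox1, Six2 and Sox11) were called, all higher. Without N2_2, 1 of 27 rose (Meis2) and 3 fell (Six2, Sox11 and Sox4) after Nmnat1 knockdown, and 7 rose and 1 fell (Otx2) after Nmnat2 knockdown, beside 8.43% and 15.5% of all genes. Without the libraries numbered 1, 7 of 26 rose and 1 fell (Otx2) after Nmnat1 overexpression and 7 rose and 0 fell after Nmnat2 overexpression, beside 11.1% and 8.18% of all genes.

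By annotation on GRCm38 (GENCODE M21), Pax6 (ENSMUSG00000027168.21) lies at chr2:105668900-105697364, Six3 (ENSMUSG00000038805.10) at chr17:85613608-85629302, Six6 (ENSMUSG00000021099.6) at chr12:72939892-72944899, Sox2 (ENSMUSG00000074637.7) at chr3:34650405-34652461 and Lhx2 (ENSMUSG00000000247.11) at chr2:38339281-38369733. Rax (ENSMUSG00000024518.3) lies at chr18:65928277-65939787, Fgf15 (ENSMUSG00000031073.6) at chr7:144896531-144900953 and Sfrp2 (ENSMUSG00000027996.13) at chr3:83766321-83774316. Each of the 8 overlaps another annotated gene: Pax6 overlaps Pax6os1, Rax overlaps Raxos1 and Six3 overlaps Six3os1, all on the opposite strand, and Sox2 lies inside Sox2ot on its own strand. These overlaps are of whole gene spans, introns included, and overlap of exons was not examined. The library chemistry does not mark strand, so where exons overlap on opposite strands, strand cannot part the reads of a member from those of its partner.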

How the data were processed

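Values per gene in 18 libraries were deposited as 2 tables. The submitters' processing notes name Salmon 0.11.3, sleuth 0.30.0 and GRCm38.p6 but give no roles. The tables are named TPM, but columns sum to 14.4 to 29.6 (knockdown) and 17.3 to 26.2 (overexpression) times 1000000. The values the authors deposited are thus read here as a length-scaled signal of unstated unit, although the test had been chosen for TPM. Values were rescaled so that each column sums to 1000000 (ppm). The knockdown columns show a group but no sample number and are called C1 to C3, N1_1 to N1_3 and N2_1 to N2_3. Low values of genes with 1 transcript lay on steps of 1 read (79.8% to 85.3% within 0.1 of a whole read), which gave the relative depth; reads were not recovered for the other genes, so no count test was run.

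A gene was kept when 3 or more of its table's 9 libraries reached 1 ppm (22233 and 20725 genes). Log2(ppm + 1), which understates changes of low genes, was fitted with limma 3.58.1 (R 4.3.3; trend, 3 groups of a table in 1 fit), tested on simulated data first. Tests were two-sided, with Benjamini-Hochberg adjustment over all genes of a comparison and a threshold of 0.05. Nothing shows that samples of a group came from separate animals, so p-values measure only the spread between these samples. In the overexpression table, 9 of 9 pairs of libraries with the same number deviated together (r between 0.12 and 0.53). Of 18 pairs of different number 6 were above 0.1, all of them number 2 with number 3 (0.12 to 0.38). Every pair of number 1 with another number was below 0. The libraries numbered 1 thus parted from the rest, and a pairing that tells number 2 from number 3 was not shown. Fits with the number as a term are given where they change a call of a gene named here. Alternatives were a pseudocount of 5, no filter, median-of-ratios scaling, 2 groups per fit and libraries left out.

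The members and lists were chosen with earlier results of these data known. Named were all 8 members, both targeted genes, up to 4 genes per list and comparison with the smallest p, genes of a list where its calls are named, and the 3 genes most like each member (mean of at least 5 ppm in each table). Promoters of 250 bases came from RefSeq. Figures were drawn with matplotlib 3.10.9.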

Additional observations from a re-analysis of the deposited data

How the results depend on the processing

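Of 672 recomputed member values, 606 kept their direction and their side of the threshold, 26 came to pass it, 8 no longer did and 32 turned direction, none of them a called value. Depth limits Fgf15 and Sfrp2, which rest on few reads. Fgf15 turned to 0.41 and 0.55 in Nmnat1 and Nmnat2 overexpression without the libraries numbered 1 and to 0.016 in the latter with a pseudocount of 5; Lhx2 turned to -0.039 in Nmnat2 overexpression under median-of-ratios scaling, and Sox2 to -0.0096 between the overexpressions without the libraries numbered 1. The cause was not tested.

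The number of genes called moved from 32 (Nmnat1 knockdown), 97 (Nmnat2 knockdown), 25 (Nmnat1 overexpression) and 114 (Nmnat2 overexpression) to 14, 32, 16 and 48 with no filter, where more genes were tested. Median-of-ratios scaling gave 9 and 71 in the overexpressions, and turned the split of higher against lower calls from 17 against 80 to 66 against 33 in Nmnat2 knockdown and from 299 against 159 to 202 against 394 between the knockdowns. With 2 groups in the fit, 1029 genes and 2 members (Pax6, adjusted p = 0.00101, and Six6, adjusted p = 0.0325) were called in Nmnat1 knockdown, 0 genes in Nmnat2 knockdown, 150 genes and 1 member between the knockdowns (458 and 2 with 3 groups; Six3 then had adjusted p = 0.0810) and 2 genes between the overexpressions (4 with 3 groups). Six6 was called between the knockdowns under median-of-ratios scaling (-0.94, adjusted p = 0.0147). The replicate block gave 187 and 269 genes and 1 member in each overexpression, and changed no other call of a member; the knockdown columns carry no number, so no paired fit was possible there. Without the libraries numbered 1, 1951 genes and 5 members, 1431 genes and 3 members, and 51 genes were called in the 3 overexpression comparisons.

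Leaving out 1 library at a time turned the direction of uncalled member differences, which then ranged from -0.50 to 1.04 (Lhx2) and from -0.84 to 0.20 (Sfrp2) in Nmnat2 knockdown, from -0.90 to 0.14 (Sfrp2) and from -0.59 to 0.24 (Fgf15) between the knockdowns, from -0.07 to 0.09 (Rax) and from -0.73 to 0.25 (Fgf15) in Nmnat1 overexpression, and from -0.27 to 0.49 (Lhx2) and from -0.25 to 0.38 (Fgf15) in Nmnat2 overexpression. Between the overexpressions it gave -0.09 to 0.66 (Lhx2), -0.07 to 0.20 (Six6), -0.20 to 0.36 (Pax6), -0.77 to 0.26 (Fgf15), -0.07 to 0.43 (Six3) and -0.25 to 0.33 (Sox2). It gave 0 to 1826 genes and 0 to 3 members in Nmnat1 knockdown, 0 to 3359 and 0 to 3 in Nmnat2 knockdown, 83 to 2933 and 0 to 6 between the knockdowns, 3 to 271 and 0 to 1 in Nmnat1 overexpression, 3 to 321 and 0 to 1 in Nmnat2 overexpression, and 2 to 9 and 0 between the overexpressions. The highest of the first 3 pairs came without N2_2. A group left with 2 libraries is assumed to vary like the others.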
